A study of Homo sapiens with 6 samples.

Results

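The pharyngeal pouch and foregut endoderm transcription factors examined here were 8 genes, PAX1, PAX9, TBX1, SIX4, EYA1, GATA6, FOXA2 and SOX17, of the 58735 genes in the count table. They were chosen by name, as regulators of the pouch or of its endoderm of origin, and each symbol corresponded to 1 Ensembl identifier in GENCODE release 29. The libraries came from H9 (WA09) cells, a wild-type line of human embryonic stem cells (hESCs), grown on a feeder layer of mouse embryonic fibroblasts and differentiated toward 3PPE, the endoderm of the third pharyngeal pouch. All cultures received Activin A and WNT3A for endoderm, then retinoic acid, SB431542, BMP4 and either IWP2 or IWR1, between which the study's methods do not decide. At day 7 the cells of the siControl group were given a negative control siRNA and those of the siHOXA3 group an siRNA against HOXA3, both by lipofection, and RNA was taken at day 9 from 3 samples per group. The labels give the 3 samples of a group only as a triplicate of this 1 cell line, and the study describes its HOXA3 knockdown experiments as independent biological repeats without naming the sequenced samples. If the 3 were not separate differentiations, the p-values measure only technical spread. The comparison asked whether the RNA of these 8 genes differed after HOXA3 inhibition.

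In the embryo, the pharyngeal pouches are outpocketings of foregut endoderm, of which the third pair gives rise to the thymus and the inferior parathyroid glands. Its development depends on a network in which the paired-box factors PAX1 and PAX9, the T-box factor TBX1, homeodomain factors such as SIX4 and their EYA coactivators act together with HOXA3, while SOX17, FOXA2 and GATA6 act earlier, when definitive endoderm and foregut form. Loss of these pouch genes in mice leaves the thymus and parathyroids absent, small or misplaced.

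The 8 genes fell into a higher group and a lower group in RNA level, and within the lower group the ranges overlapped. GATA6, SIX4 and EYA1 had 477 to 876 reads in every library, PAX9 had 0 to 16, and TBX1, SOX17, FOXA2 and PAX1 had from 0 to 10. No difference between siControl and siHOXA3 passed the test for any of them. The targeted gene, HOXA3, had 248, 240 and 236 counts in siControl replicates 1, 2 and 3 and 159, 199 and 220 in siHOXA3 replicates 1, 2 and 3. Scaled to the library size as CPM, the library labelled siHOXA3 replicate 3 (15.49 CPM) was above siControl replicate 3 (15.46 CPM), and the log2 fold change of HOXA3 was -0.27 with a 95% interval from -0.62 to 0.07 (SE 0.157, where SE is the standard error, edgeR adjusted p = 0.828). The difference in HOXA3 RNA between the groups thus did not pass the test, and every direction below is that of the libraries labelled siHOXA3. The total count per library was between 14117150 and 15282307. A count of 0 allows up to about 3 counts at a one-sided level of 95%, which was worth 0.196 to 0.213 CPM, and a gene with more than 3 counts in a library is called above the detection limit there. Limits and intervals on counts cover counting error only. The library of siHOXA3 replicate 2 stood apart from the rest: its counts differed from those of each other library by a chi-square of 28.0 to 34.1 per degree of freedom, against 4.83 to 11.7 between all other pairs.

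By the limit of 3 counts, GATA6, SIX4 and EYA1 were above it in all 6 libraries, PAX9 in 2 of 3 siControl and 3 of 3 siHOXA3 libraries, and TBX1 in 1 of 3 libraries of each group. SOX17, FOXA2 and PAX1 were at or under it in all 6 libraries. With more than 10 counts in all libraries of a group as the limit, the same 3 genes, GATA6, SIX4 and EYA1, remained above it. Because these are bulk libraries, fewer cells that express a gene and less RNA per cell cannot be told apart.

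**Figure D1:**
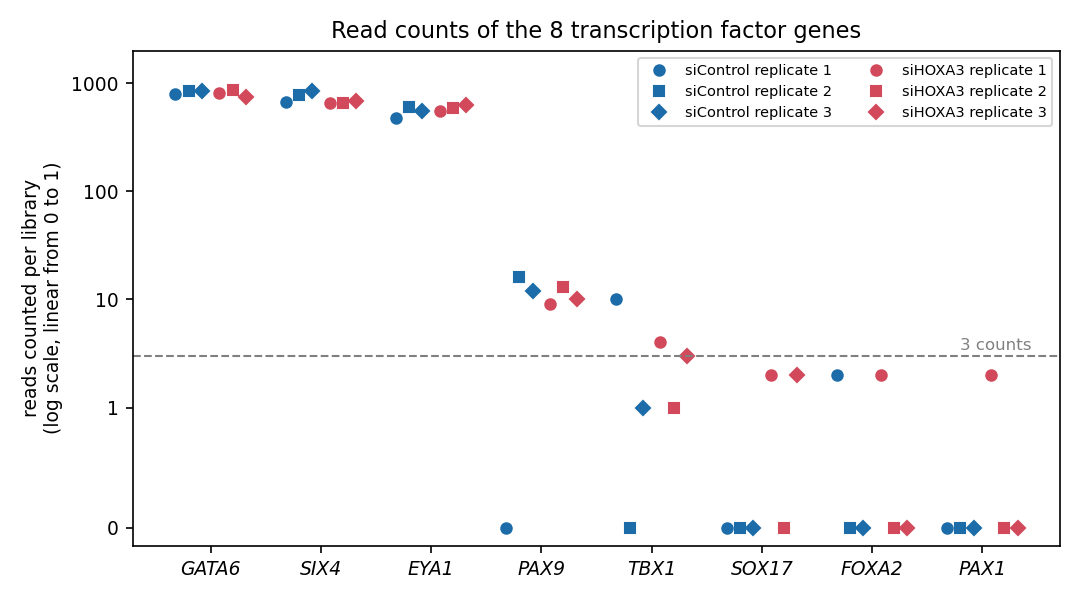
Reads counted for each of the 8 genes (horizontal axis) in each library, on a vertical axis that is logarithmic above 1 count and linear from 0 to 1. Blue points are siControl and red points siHOXA3, the marker shape gives the replicate and the dashed line is the limit of 3 counts. GATA6, SIX4 and EYA1 lie between 477 and 876 counts, PAX9 is at 0 in siControl replicate 1 and between 9 and 16 elsewhere, and SOX17, FOXA2 and PAX1 do not exceed 2 counts.

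Levels of different genes were compared as CPM per kilobase (kb) of merged exons. On this scale the order was GATA6 (14.02 CPM per kb), SIX4 (7.22), EYA1 (4.09), PAX9 (0.111), TBX1 (0.0600), SOX17 (0.0198), FOXA2 (0.0174) and PAX1 (0.00391), each a mean over 6 libraries. The ranges over the libraries did not overlap between GATA6 and SIX4, between SIX4 and EYA1, or between EYA1 and PAX9. From PAX9 downward, neighbours in this order overlapped and could not be ranked. The order of SIX4 and EYA1 depended on the length used: with the longest annotated transcript in place of the merged exons, EYA1 was at 8.90 CPM per kb (7.40 to 10.3) and SIX4 at 7.65 (6.91 to 8.91), with overlapping ranges. Set among 19951 protein-coding genes, of which 2736 had no count, GATA6 was higher than 84.1%, SIX4 than 70.6%, EYA1 than 59.9%, PAX9 than 29.9% and TBX1 than 26.2%. SOX17, FOXA2 and PAX1 were higher than 20.57%, 19.97% and 15.04%, close to the genes with no count.

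**Figure D2:**
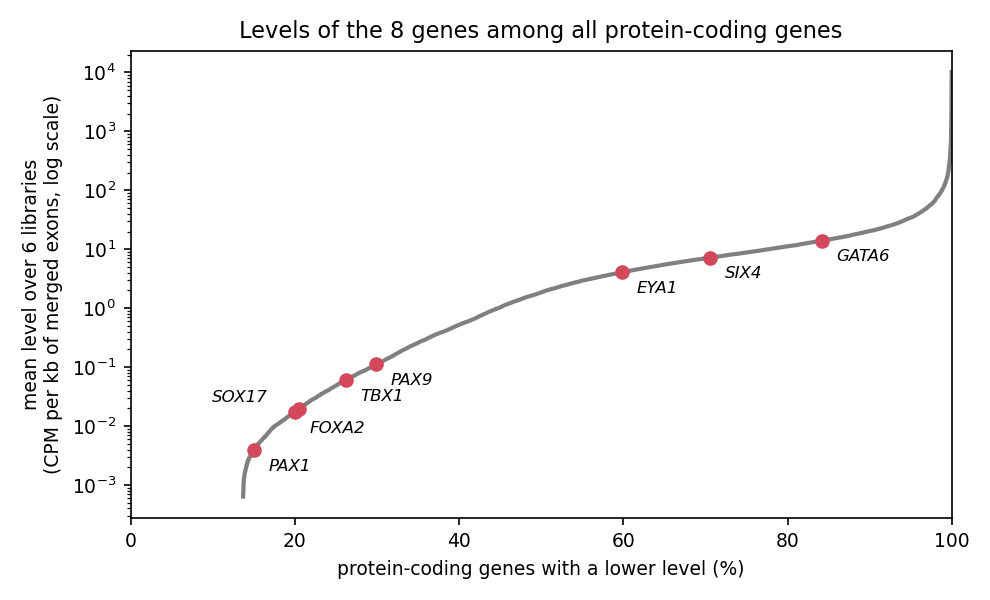
Mean level over the 6 libraries in CPM per kb of merged exons (vertical axis, log scale) against the percentage of protein-coding genes with a lower level (horizontal axis). The grey curve is all protein-coding genes with a count and the red points are the 8 genes. GATA6, SIX4 and EYA1 sit in the upper part of the curve at 84.1%, 70.6% and 59.9%, and the other 5 genes sit at or below 29.9%.

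GATA6, SIX4, EYA1 and PAX9 had enough reads for edgeR's quasi-likelihood test and were tested with all 16561 genes that passed the filter on low counts. Of these 4 genes 0 were called at an adjusted p under 0.05, in a comparison in which 0.00604% of the tested genes were called (1 gene). None of the 4 had an unadjusted p under 0.05, against 6.36% of the tested genes, and in none did the values of the groups fail to overlap, against 13.3%. Limma-voom with sample quality weights also called 0 of the 4. DESeq2 called 0 of the 3 to which it gave an adjusted p, as it gave none to PAX9, and in both 0 of the 4 had an unadjusted p under 0.05. EYA1 and PAX9 had positive and SIX4 negative estimates, and that of GATA6 was near 0. The median log2 fold change of the 4 was 0.09, beside 0.00190 over all tested genes, and it was -0.12 without siControl replicate 1.

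**Figure D3:**
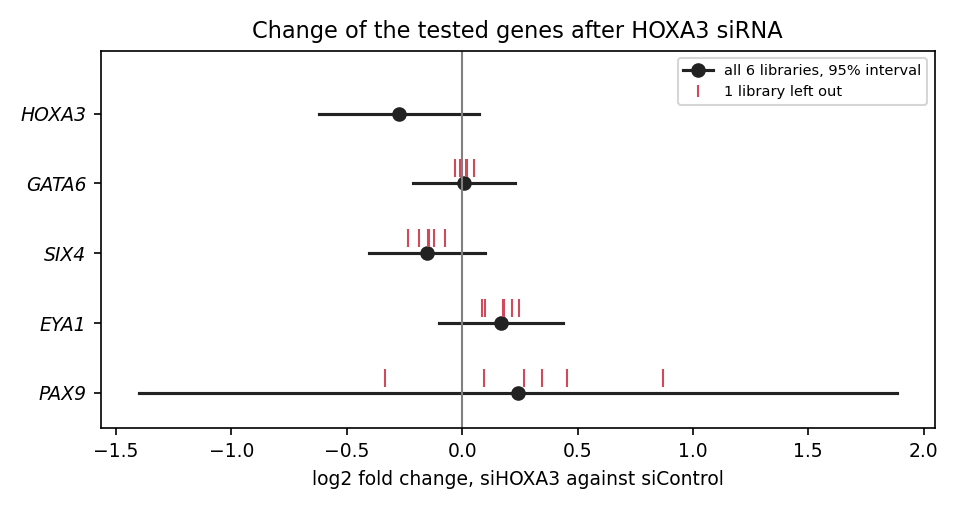
Log2 fold change of siHOXA3 against siControl (horizontal axis) for HOXA3 and the 4 tested genes, from edgeR. Black points are the estimates from all 6 libraries with their 95% intervals as bars, and red ticks are the estimates with 1 library left out in turn, drawn for the 4 genes and not for HOXA3. The interval of each of these genes includes 0, from -0.21 to 0.23 for GATA6 and from -1.40 to 1.88 for PAX9.

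Of the endoderm factors, GATA6, a zinc finger factor of endoderm and heart (ENSG00000141448, chromosome 18 of GRCh38, bases 22169443 to 22202528, plus strand), had the highest level. Its counts were 801, 842 and 855 in siControl replicates 1, 2 and 3 and 815, 876 and 739 in siHOXA3 replicates 1, 2 and 3. The lowest and the highest library were both siHOXA3, and the siControl values lay between them. GATA6 had 55.1 ± 1.20 CPM (SD, n = 3) in siControl and 55.4 ± 3.145 CPM (SD, n = 3) in siHOXA3. The estimate for siHOXA3 against siControl was 0.00791 on the log2 scale (SE 0.0997, adjusted p = 0.989, edgeR), and its 95% interval corresponded to folds from 0.864 to 1.17. The sign of this estimate changed with the processing, as it lay between -0.03 and 0.05 over 14 alternatives.

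GATA6-AS1, an antisense RNA that shares 240 exonic bases with GATA6 on the opposite strand, had 94, 95 and 126 counts in siControl and 148, 148 and 78 in siHOXA3. It was high in siHOXA3 replicates 1 and 2 and lowest in siHOXA3 replicate 3, which was also the library lowest for GATA6 (edgeR log2 fold change 0.29 with an SE of 0.245, adjusted p = 0.859). AC091588.3, another antisense gene that shares 321 exonic bases with GATA6, had between 1 and 13 counts, beside 739 to 876 for GATA6. Whether reads were counted by strand is not given, so reads in shared stretches of opposite genes, here and for the genes below, cannot be told apart. The 3 genes whose log2 CPM was most like that of GATA6 were ASH2L (Pearson r = 0.990), CHMP5 (0.990) and AEBP2 (0.986), among 10133 genes compared over the 6 libraries. GATA6 itself varied only 1.12-fold between its lowest and highest library, and the 6 points share libraries and depth, so these values describe the libraries and carry no test.

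FOXA2, a forkhead factor that opens chromatin in foregut endoderm (ENSG00000125798, minus strand of chromosome 20, bases 22581005 to 22585455), was counted 2, 0 and 0 times in siControl and 2, 0 and 0 in siHOXA3. The only reads were in replicate 1 of each group, and the mean difference was 0.00108 CPM (exact permutation test, two-sided, p = 1.0). LINC00261 and LNCNEF, non-coding RNAs 2363 and 2067 bases from FOXA2, were at 0 in all 6 libraries. SOX17, an HMG-box factor of definitive endoderm (ENSG00000164736, plus strand of chromosome 8, bases 54457935 to 54460888), had 0 counts in each siControl library and 2, 0 and 2 in siHOXA3. Both genes were under the limit throughout, and a count of 2 has an exact 95% Poisson interval that a count of 0 overlaps. The SOX17 difference was 0.0928 CPM (exact permutation test, two-sided, p = 0.4, with 0.1 the smallest that 3 against 3 allow). At these depths no difference could be shown, and by the limit of 3 counts neither FOXA2 nor SOX17 RNA was called present. Fitting without a filter on low counts gave adjusted p-values of 0.994 for FOXA2 and 0.796 for SOX17 (edgeR).

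Among the pouch factors, SIX4, a homeodomain factor that partners with EYA proteins (ENSG00000100625, minus strand of chromosome 14, bases 60709528 to 60724348), was counted 665, 775 and 855 times in siControl and 660, 653 and 679 in siHOXA3. In siControl, replicates 2 and 3 were above all siHOXA3 libraries once scaled, while siControl replicate 1 (44.65 CPM) lay among them (43.4 to 47.8 CPM). SIX4 had 50.6 ± 5.70 CPM in siControl and 45.5 ± 2.20 CPM in siHOXA3 (SD, n = 3 each). As a log2 fold change this was -0.15 (SE 0.115, adjusted p = 0.851, edgeR), with folds from 0.755 to 1.07 in its 95% interval. It was negative in all 14 alternatives, from -0.24 to -0.07, and the adjusted p was between 0.561 and 0.997. Of the 50-base stretches in SIX4 transcripts, 2.54% also occur in transcripts of other genes, 253 in number. Part of its reads could thus have been counted elsewhere, and reads of those genes could have been counted as SIX4.

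EYA1, a coactivator with phosphatase activity that binds SIX4 and its relatives (ENSG00000104313, minus strand of chromosome 8, bases 71197433 to 71592025), was counted 477, 607 and 559 times in siControl and 552, 597 and 633 in siHOXA3. The lowest library was siControl replicate 1 and the highest siHOXA3 replicate 3, and the groups overlapped. EYA1 had 36.25 ± 4.06 CPM in siControl and 40.7 ± 3.44 CPM in siHOXA3 (SD, n = 3 each). The difference on the log2 scale was 0.17 (SE 0.123, adjusted p = 0.848, edgeR), with folds from 0.932 to 1.36 in its interval. It was positive in all 14 alternatives, from 0.09 to 0.25. SIX4 and EYA1, partners in one complex, thus had estimates of opposite sign, and neither differed beyond the spread between samples. AC015687.1, which shares 347 exonic bases with EYA1 on the opposite strand, had 8 to 18 counts, few beside the reads of EYA1.

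PAX9, a paired-box factor of the pouch endoderm (ENSG00000198807, plus strand of chromosome 14, bases 36657568 to 36679715), had 0, 16 and 12 counts in siControl and 9, 13 and 10 in siHOXA3. The count of 0 in siControl replicate 1 allows up to 3.69 counts by a two-sided exact 95% Poisson interval, which lies below the intervals of the other 5 libraries, the lowest of which is 4.115 to 17.1 for siHOXA3 replicate 1. PAX9 was the only gene of the table with 0 counts in siControl replicate 1 and at least 9, the lowest of its own other counts, in each of the other 5 libraries, a pattern defined from PAX9 itself. Asked the same way, siControl replicate 3 and siHOXA3 replicate 2 had 1 such gene each and the other 3 libraries had 0. Of 1131 genes with 50 to 70 counts in total, as PAX9 with 60, a library at 0 was found in 17 (1.503%). PAX9 had 0.615 ± 0.549 CPM in siControl and 0.729 ± 0.125 CPM in siHOXA3 (SD, n = 3 each). The edgeR estimate on the log2 scale was 0.24 (SE 0.747, adjusted p = 0.959, edgeR) and, without siControl replicate 1, -0.33 (adjusted p = 0.947), so this 1 library set the sign. The 95% interval, from 0.378-fold to 3.69-fold, leaves PAX9 the least determined of the 4 tested genes. SLC25A21, a mitochondrial carrier gene that shares 481 exonic bases with PAX9 on the opposite strand, had 28, 20 and 29 counts in siControl and 17, 21 and 21 in siHOXA3. In siControl replicate 1, where PAX9 was at 0, SLC25A21 was at 28.

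TBX1, the T-box factor of the pharyngeal apparatus whose loss is linked to DiGeorge syndrome (ENSG00000184058, plus strand of chromosome 22, bases 19756703 to 19783593), had 10, 0 and 1 counts in siControl and 4, 1 and 3 in siHOXA3. Of its 19 reads 10 came from siControl replicate 1, the library in which PAX9 was at 0. The difference of the means was -0.0614 CPM (exact permutation test, two-sided, p = 1.0). Among 4954 genes with 10 to 30 counts in total, 66.8% had a library at 0 and 10.9% had a library with at least 10 counts. GNB1L, which shares 280 exonic bases with TBX1 on the opposite strand, had 131, 131 and 100 counts in siControl and 109, 117 and 129 in siHOXA3, several times the reads of TBX1. PAX1, the paralog of PAX9 in the pouch (ENSG00000125813, plus strand of chromosome 20, bases 21705659 to 21718486), had 0 counts in 5 libraries and 2 in siHOXA3 replicate 1 (exact permutation test, two-sided, p = 1.0).

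The promoters of PAX9 and SIX4 are shown because HOXA3 is a homeodomain protein and, of the 4 genes whose promoters were read (PAX9, SIX4, TBX1 and GATA6), these held the 4 letters TAAT, a core that many homeodomains bind. The promoters of EYA1, SOX17, PAX1 and FOXA2 were not analysed here. They are the 250 bases before the start in GRCh38.p14, 5′ to 3′ on the strand of the gene, with TAAT or its reverse complement ATTA in capitals. The PAX9 sequence is chr14:36657318-36657567 (plus strand) and the SIX4 sequence is chr14:60724352-60724601 (minus strand).
PAX9: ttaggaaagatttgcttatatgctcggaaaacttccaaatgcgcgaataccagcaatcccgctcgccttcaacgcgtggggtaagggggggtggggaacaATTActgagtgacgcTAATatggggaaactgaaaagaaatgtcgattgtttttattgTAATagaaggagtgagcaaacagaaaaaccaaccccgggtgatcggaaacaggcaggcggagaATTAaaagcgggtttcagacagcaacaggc
SIX4: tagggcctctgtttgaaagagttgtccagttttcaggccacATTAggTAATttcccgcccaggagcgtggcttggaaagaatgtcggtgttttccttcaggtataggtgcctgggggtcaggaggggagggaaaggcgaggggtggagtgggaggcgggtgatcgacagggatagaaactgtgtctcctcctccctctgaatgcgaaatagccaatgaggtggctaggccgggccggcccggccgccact
PAX9 had 4 matches and SIX4 had 2, counted on both strands. A second RefSeq start of PAX9 had 0 matches in 87 bases (chr14:36661610-36661696), where 28.1% of all promoters had a match. These are the bases farthest from that start within its 250, cut where an annotated exon of any gene begins. Such short letters are common, as 47.4% of 35116 promoters of this length held at least 1. TBX1 (chr22:19756453-19756702, plus strand) had 0 matches in 250 bases. GATA6 had 0 in 70 bases (chr18:22169339-22169408), cut in the same way, where 24.3% of all promoters had a match. For GATA6 and the second PAX9 start, the bases nearer the start were thus not read. The GC content was 46.8% for PAX9, 58.0% for SIX4 and 62.0% for TBX1, against a median of 58.0% over all promoters. A match is a description of the letters, and no binding was measured in these libraries.

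Many of these genes belong to families whose other members can share their function, and the levels of 7 of the 8 were compared within families as CPM per kb. The family of SIX4 was not analysed here. EYA3 (6.89) was above EYA1 (4.09) and EYA2 (2.33), and EYA4 was at or under 3 counts in all libraries. GATA3 (90.1) and GATA2 (16.2), factors of trophoblast, amnion and blood, had higher means than GATA6 (14.02), though the library ranges of GATA2 and GATA6 overlapped. GATA4, the usual partner of GATA6 in endoderm, was at 0.137 with 2 to 15 counts. FOXA3 (1.04) and FOXA1 (0.0960) had higher means than FOXA2 (0.0174), though the ranges of FOXA1 and FOXA2 overlapped. SOX7 (3.34), the relative of SOX17 in primitive endoderm and vessels, was above SOX17 (0.0198). PAX3 (0.147), a factor of neural crest and muscle, and PAX9 (0.111) had the highest means of 9 PAX genes. Of the other 7, 6 were at or under 3 counts in all libraries. TBX3 (22.6) was the highest of 13 TBX genes, and TBX1 (0.0600) was at the level of TBX15 (0.0599).

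**Figure D4:**
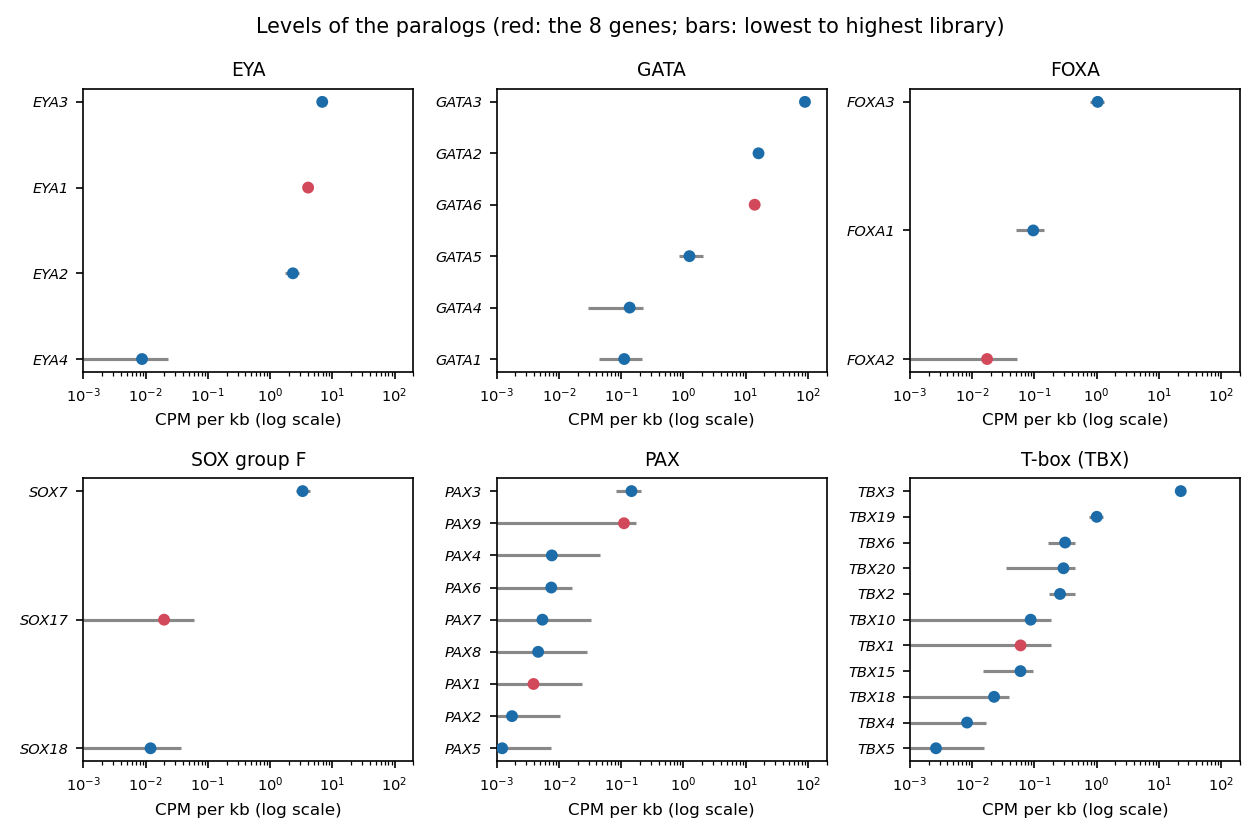
Mean level over the 6 libraries (horizontal axis, CPM per kb, log scale) of the genes of 6 families, with bars from the lowest to the highest library and EYA1, GATA6, FOXA2, SOX17, PAX1, PAX9 and TBX1 in red. A bar that reaches the left edge has a library at or below 0.001, and TBX21 and TBX22, at 0 in all libraries, are not drawn. EYA1 and GATA6 lie among the higher members of their families, and FOXA2, SOX17 and PAX1 lie where libraries reach 0.

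Within the EYA family the makeup was compared between the groups. EYA1 made up 27.2%, 30.5% and 30.4% of the summed EYA level in siControl and 30.8%, 33.1% and 32.0% in siHOXA3. Every siHOXA3 value was above every siControl value, with means of 29.3% ± 1.88 and 32.0% ± 1.18 (SD, n = 3 each). The EYA2 share was 14.98% ± 1.90 and 19.84% ± 0.681 and that of EYA3 55.6% ± 3.12 and 48.1% ± 1.80 in siControl and siHOXA3 (SD, n = 3 each), again without overlap. Each of these shares had an exact permutation p of 0.1 (two-sided), the smallest 3 against 3 allow, and 0.133 adjusted over the 4 shares computed, so none can pass 0.05 in this design. The shares of one family sum to 100% and are not separate results. As single genes, EYA2 was estimated by edgeR at 0.45 on the log2 scale (SE 0.1855, adjusted p = 0.741) and EYA3 at -0.16 (SE 0.109, adjusted p = 0.844). The share of GATA6 in the GATA family was 12.1% ± 1.28 in siControl and 11.0% ± 0.590 in siHOXA3 (SD, n = 3 each, exact permutation p = 0.3, two-sided).

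The genes that act with the 8 factors were read from lists. Of 34 pouch partners (HOX3 genes, other EYA, FOX and TBX factors, FGF, BMP, SHH and WNT signals and more) 20 were tested and 0 were called in either direction. At an unadjusted p under 0.05, 2 had a positive and 1 a negative estimate, beside 6.36% of all tested genes in either direction. The values of the groups did not overlap in 2 genes with higher and 5 with lower values in siHOXA3, a larger share of the 20 than the 13.3% over all tested genes, as a description without a test. Those that also had an unadjusted p under 0.05 were SPRY2, EYA2 and the ligand WNT4. SPRY2, an FGF feedback inhibitor, had a log2 fold change of 0.29 (adjusted p = 0.762) and WNT4 of -0.39 (adjusted p = 0.759), both from edgeR. Of the genes highest in level in this list, TBX3 had 139 ± 2.98 CPM in siControl and 130 ± 19.3 in siHOXA3. BMP4 had 48.4 ± 2.07 and 44.15 ± 4.30, and EYA3, another gene without overlap, 47.1 ± 0.473 and 42.3 ± 3.95 (SD, n = 3 each). The median log2 fold change of the 20 was -0.11, beside 0.00190 over all tested genes. In this list 10 genes were at or under 3 counts in all 6 libraries, among them FGF8, FGF3 and HOXD3 at 0 throughout, SHH with 1 read in each of 2 libraries and FOXN1, the regulator of thymic epithelium, with 1 read in siHOXA3 replicate 1. These names were picked out after their values were seen.

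Of 26 endoderm partners 9 were tested, 0 were called and 0 had an unadjusted p under 0.05. The groups did not overlap in 1 of the 9, beside 13.3% of all tested genes, and the median log2 fold change was -0.01. CLDN6, a tight junction gene of early epithelia, had 629 ± 26.2 CPM in siControl and 676 ± 102 in siHOXA3, and KITLG, KLF5 and SOX7 were the next highest (139, 59.5 and 9.53 CPM in siControl). At or under 3 counts in all libraries were 8 genes, among them, picked out here by that count, HHEX, HNF4A, CER1, EOMES, ONECUT1, PDX1 and NKX2-1. Of 16 genes that neighbour the 8 factors on their chromosomes, 8 were tested and 0 were called or had an unadjusted p under 0.05. The highest of them were MIB1, ESCO1, MNAT1 and TANGO2, with 181, 45.0, 20.3 and 11.6 CPM in siControl and 170, 42.9, 22.1 and 12.2 CPM in siHOXA3.

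The labelled cell type was checked against marker lists. All 6 epithelial markers (EPCAM, CDH1, CLDN4, KRT8, KRT18 and KRT19) were above the limit in every library, summing to 7358 to 7610 CPM in siControl and 7181 to 9216 in siHOXA3. Of the endoderm and pouch factors themselves FOXA2, SOX17 and PAX1 were at or under 3 counts in every library, whereas PAX9 was above the limit in 5 of 6 libraries, and GATA6, SIX4, EYA1 and 20 of the 34 pouch partners in all 6. SOX17 marks earlier endoderm, FOXA2 is a factor of foregut endoderm as well, and GATA6, SIX4 and EYA1 are also expressed outside endoderm. Whether the stage of the cultures bears on the counts of FOXA2 and SOX17 was not tested. Of 16 amnion and trophoblast markers 14 were above the limit in all libraries. They summed to 6110 to 6617 CPM in siControl and 6630 to 7351 in siHOXA3, sums that did not overlap. The largest part was 1 gene, IGFBP3 (3117 ± 156 CPM in siControl and 3646 ± 237 in siHOXA3, SD, n = 3 each). Of the next highest, GABRP and KRT7 had negative estimates and VTCN1 a positive one. In that list 14 were tested, 0 were called and 4 did not overlap between the groups, all with higher values in siHOXA3, beside 13.3% of all tested genes in either direction. An unadjusted p under 0.05, found in 6.36% of all tested genes, was found in 2 of the 14, TFAP2B (log2 fold change 0.60, adjusted p = 0.486) and TFAP2A (0.23, adjusted p = 0.781, both edgeR). Of 8 pluripotency markers 5 were above the limit in all libraries. Their sums, 1261 to 1315 CPM in siControl and 1320 to 1479 in siHOXA3, most of it LIN28A, did not overlap either. Of the 5 tested, 0 were called and 2, LIN28A and POU5F1, did not overlap, beside 13.3% of all tested genes. Both had higher values in siHOXA3, and POU5F1 had 5.47 ± 0.614 and 7.035 ± 1.28 CPM (SD, n = 3 each). The part of these other cells or states in the levels of the 8 genes was not tested.

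**Figure D5:**
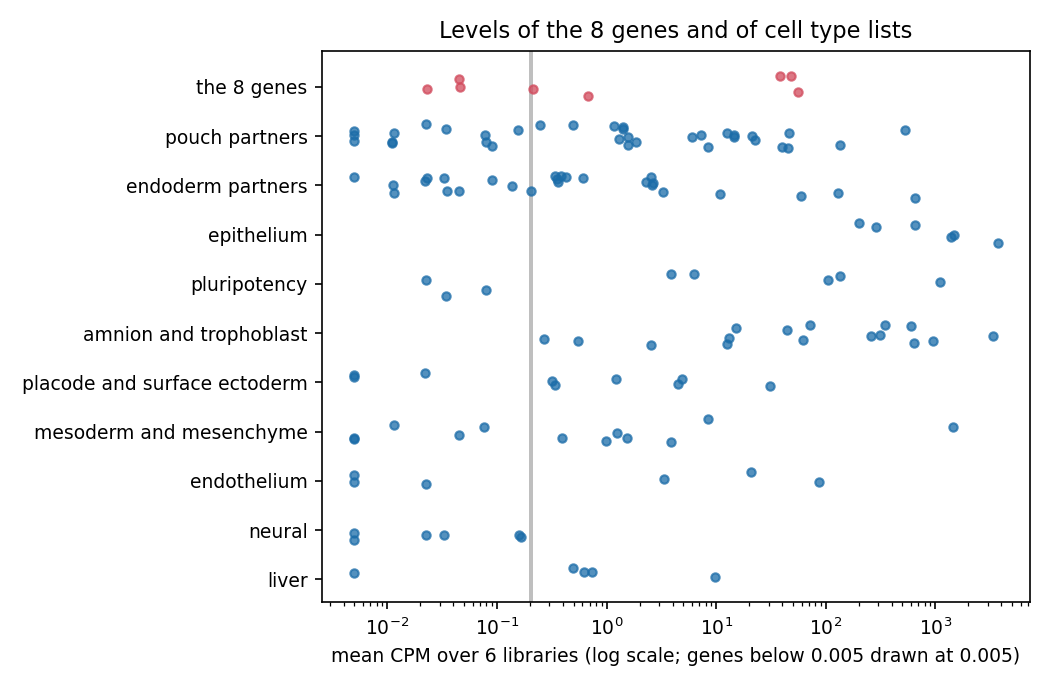
Mean CPM over the 6 libraries (horizontal axis, log scale) of each gene in the lists named on the vertical axis, with the 8 genes in red, genes below 0.005 CPM drawn at 0.005 and vertical position within a list without meaning. The grey band marks what 3 counts are worth, 0.196 to 0.213 CPM. Epithelial genes all lie above the band, amnion and trophoblast genes lie to the right of it, and the 8 genes lie on both sides, with GATA6, SIX4, EYA1 and PAX9 above it, TBX1 at its upper edge and SOX17, FOXA2 and PAX1 below it.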

How the data were processed

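RNA-seq was done on 3 siControl and 3 siHOXA3 samples (n = 3 per group) with single reads and the LM-Seq protocol, and the labels also name a SMARTER kit. The authors deposited raw counts of reads per gene, whole numbers without normalization, for 58735 genes and 6 libraries. The aligner, the counting program and the strand setting are not given in the sources used here. The submitters' processing notes name the mouse builds GRCm38 and mm10, but all 58735 identifiers are human and were found in GENCODE release 29 (GRCh38), which gave symbols, positions, exons and lengths. How reads from the mouse feeder cells were treated is not given either.

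The tests used edgeR 4.0.16 under R 4.3.3, with its filterByExpr step, TMM factors, the robust quasi-likelihood fit, two-sided p-values and Benjamini-Hochberg adjustment over 16561 genes. CPM values are scaled to the TMM-normalized library size. Members with too few counts were compared by exact permutation of CPM. Alternatives were DESeq2 1.42.0, limma 3.58.1 (voom with sample quality weights), 3 other normalizations, 2 other filters, the replicate number as a block, and each library left out in turn. Replicate numbers did not pair the samples: deviations of same-numbered samples correlated at 0.142, 0.104 and -0.059. No pair of libraries differed as little as sampling noise. The fit was tested on simulated counts.

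The members and lists were chosen with earlier results of these data known. Named were the 8 members, HOXA3 and some, not all, of the genes that overlap a member or lie within 10 kb. Of the lists, the 4 highest genes, any called gene and those with an unadjusted p under 0.05 and no overlap between groups were named. The 3 genes most like the highest member were named as well. Families and their alternatives were chosen after values were seen. Promoter sequences came from RefSeq (GRCh38.p14), in which 4 of the 8 members were matched. Single values of a few genes of the lists are not reported here.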

Additional observations from a re-analysis of the deposited data

How the results depend on the processing

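Across the alternatives 0 of the tested members were called (DESeq2 gave PAX9 no adjusted p), and 0 had an unadjusted p under 0.05. Over all genes, 1 was called by edgeR, 38 by DESeq2, 67 by limma-voom with sample quality weights, 100 with no filter on low counts, and between 1 and 24 with 1 library left out, 24 being the number without siHOXA3 replicate 2. Blocking on the replicate number gave 4 called genes, and the block changed no call of a member. The log2 fold change of GATA6 was -0.00227 when scaled by library size alone, -0.0152 under limma-voom, and between -0.0324 and 0.0532 with 1 library left out, all near 0. PAX9 lay between -0.33 and 0.87 with 1 library left out and was negative only without siControl replicate 1, and the median of the tested members lay between -0.12 and 0.13. PAX9 did not pass a filter of CPM above 1 in 3 libraries, so that setting gives it no value. With the longest annotated transcript the level was 8.90 CPM per kb for EYA1 and 14.7 for GATA6. Among the alternatives added after seeing the data, the rise of the EYA2 share was 2.63 points from counts without a length, against 4.86. The changes of the EYA1, EYA2 and EYA3 shares kept their sign under every length and with each library left out. Over all of these alternatives they ranged from 1.53 to 3.96 points for EYA1, from 2.63 to 5.92 for EYA2 and from -9.17 to -6.09 for EYA3. Depth limits PAX9, TBX1, SOX17, FOXA2 and PAX1, for which a library with 3 counts or fewer cannot be told from a library with 0.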

Other observations

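Markers of further cell types were read from the same libraries. Of 12 mesoderm and mesenchyme markers 6 were tested, 0 were called and 0 had an unadjusted p under 0.05. Their sum was 1338 to 1441 CPM in siControl and 1384 to 1652 in siHOXA3, nearly all of it COL1A1, a collagen gene, with 1364 ± 52.7 and 1500 ± 134 CPM (SD, n = 3 each). PDGFRA, TWIST1 and NKX2-3 had 8.74, 3.59 and 1.28 CPM in siControl, and TBX5 and TBX6, further T-box genes, had at most 1 and between 8 and 21 counts per library. Of 6 endothelial markers 3 were tested, KDR with 93.1 ± 3.88 CPM in siControl and 81.2 ± 19.3 in siHOXA3, CDH5 with 22.04 ± 1.04 and 19.7 ± 3.56, and TEK with 3.76 ± 1.19 and 2.92 ± 1.22 (SD, n = 3 each), and 0 of them were called or had an unadjusted p under 0.05. SOX18, the vessel gene of the SOX17 family, had 1 read in each of 2 libraries.

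Of 9 placode and surface ectoderm markers, genes of tissue where EYA factors also act, 4 were tested and 0 were called or had an unadjusted p under 0.05. DLX3 was highest (32.9 ± 1.03 CPM in siControl and 29.2 ± 4.49 in siHOXA3), followed by DLX6, DLX5 and KRT15 at 4.51, 4.02 and 1.26 CPM in siControl (SD, n = 3 each). None of 6 neural markers had enough reads to be tested. DCX had 2, 3 and 10 counts in siControl and 0 in each siHOXA3 library, and PAX6 and SOX1 had at most 5. Of 5 liver markers 3 were tested with 0 called and 0 at an unadjusted p under 0.05, APOB with 10.7 ± 1.29 and 9.00 ± 2.54 CPM, APOA1 with 0.9275 ± 0.289 and 0.544 ± 0.281 CPM and FGB with 0.598 ± 0.405 and 0.633 ± 0.375 CPM (SD, n = 3 each). Among amnion and trophoblast markers the highest were IGFBP3 (3117 ± 156 and 3646 ± 237 CPM), GABRP (954 ± 82.5 and 937 ± 62.5), KRT7 (663 ± 57.3 and 623 ± 54.2) and VTCN1 (569 ± 39.0 and 639 ± 39.0, SD, n = 3 each).

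Some low genes had reads in 1 library only. In siHOXA3 replicate 1 the paired-box genes PAX1, PAX4, PAX7 and PAX8 had 2, 2, 3 and 3 counts, while each had 0 in the other 5 libraries. They were picked from 9 PAX genes for this pattern, and a library with 3 counts or fewer cannot be told from a library with 0. At least 1 read was found for 25300 to 27325 genes per library, the most in siHOXA3 replicate 1.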
